A study of Homo sapiens with 6 samples.

Results

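The D and E cyclins with their kinases are the genes that bring a cell from G1 into S phase. A set of 9 genes was taken by exact gene symbol from the 58735 rows of the count table: the D cyclins CCND1, CCND2 and CCND3, their kinases CDK4 and CDK6, the E cyclins CCNE1 and CCNE2, their kinase CDK2, and the phosphatase CDC25A. Each symbol matched 1 row, and all 9 genes passed the filter on low counts, which left 15935 genes for testing. RD is an established human embryonal rhabdomyosarcoma (ERMS) cell line. The cells were transduced with lentiviral particles carrying either scrambled shRNA, the control (n = 3), or TAK1 shRNA (n = 3), and poly(A)-enriched mRNA was sequenced. Every sample was thus a transduced culture of the same line, and by the study's methods 1 TAK1 shRNA sequence was profiled, so the knockdown of TAK1 and any other action of that construct cannot be told apart. The labels do not say that the samples came from separate cultures, and p-values measure the spread between these samples, which may be technical.

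In G1, D cyclins bind and activate CDK4 and CDK6 in response to growth signals, and these kinases begin the phosphorylation of the retinoblastoma protein RB1. This releases E2F transcription factors, which drive the transcription of the E cyclins, of CDC25A and of the enzymes of DNA replication. E cyclins then activate CDK2, and CDC25A removes the inhibitory phosphates from CDK2. In muscle precursors, high cyclin D and CDK4 activity is known to oppose the action of MyoD and the exit from the cell cycle.

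The totals were between 28839898 and 34469323 counts per sample. Levels are in CPM, in which counts are scaled to a common library size after TMM normalization (trimmed mean of M-values), and changes are log2 fold changes of TAK1 shRNA against scrambled shRNA from edgeR's quasi-likelihood test. A gene was called higher or lower at a Benjamini-Hochberg adjusted p under 0.05 over all tested genes together with a log2 fold change of 0.25 or more in either direction. MAP3K7, which encodes TAK1, measured 77.9, 76.5 and 77.6 CPM with scrambled shRNA and 30.5, 33.6 and 29.9 CPM with TAK1 shRNA, 40.5% of the control level on average. The lineage genes MYOD1 and DES were abundant, at 263 and 340 CPM in control cells, and MYF5 had no count in any sample. Of the 4 lineage genes tested, MYOD1, MYOG and MYMK were called higher with TAK1 shRNA, at log2 fold changes of 0.37, 0.27 and 0.98, and their part in the results was not tested. Of the markers of other cell types (PTPRC, PECAM1, EPCAM and ALB), the summed level was at most 0.485 CPM in any sample.

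Of the 9 genes, 6 were lower in TAK1 knockdown cells and 0 were higher by these thresholds. Across all 15935 genes tested, 11.3% were called lower and 11.8% higher. CCND1, CCND2, CCNE2, CDC25A, CDK2 and CDK4 fell, in order of the size of the log2 fold change. CCND3, CDK6 and CCNE1 did not pass. The groups did not overlap for 7 of the 9 genes, each time with the TAK1 shRNA samples below, a pattern that 22.2% of all tested genes showed. At a fold threshold of 0.5, 4 of the 9 were lower (CCND1, CCND2, CCNE2 and CDC25A), against 4.27% of all tested genes, and with no fold threshold 8 of the 9 were, against 17.2%. The median log2 fold change of the 9 genes was -0.42, against 0.018 for all genes tested. RNA was measured in bulk, so fewer cells in a phase of the cycle and less RNA per cell cannot be told apart. The proliferation markers MKI67, TOP2A and PCNA were lower in the same samples, with log2 fold changes of -0.32, -0.27 and -0.50, and their part in these results was not tested.

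**Figure D1:**
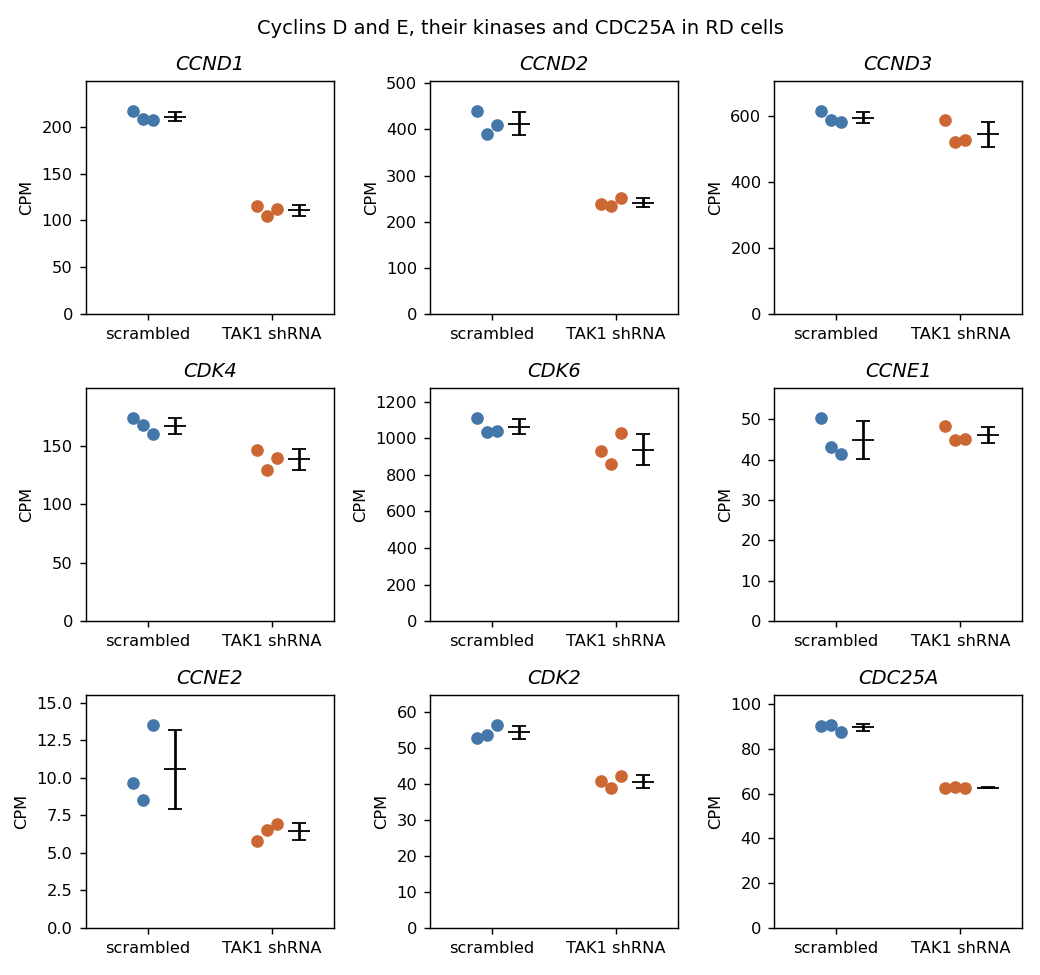
Expression in CPM (vertical axes from 0, linear) of each of the 9 genes in the 3 scrambled shRNA samples (blue) and the 3 TAK1 shRNA samples (orange), with points for samples and black bars for the mean ± SD. CCND1 and CCND2 are clearly separated between the groups, while the groups overlap for CCND3 and CCNE1.

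Of the D cyclins, CCND1 and CCND2 fell and CCND3 was not called. CCND1, the D cyclin best known as a target of mitogen signaling (ENSG00000110092.4, chromosome 11, 69641156 to 69654474, plus strand, GRCh38), measured 216, 209 and 207 CPM in the scrambled shRNA samples and 115, 104 and 112 CPM in the TAK1 shRNA samples. All knockdown values lay far below all control values, with means of 211 ± 4.81 and 111 ± 5.58 CPM (SD, n = 3 per group). CCND1 thus fell by 0.93 on the log2 scale, with a standard error of 0.049 and an adjusted p of 2.98e-13 (edgeR). Only 218 of the 15935 tested genes, CCND1 included, had a log2 fold change as low or lower.

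CCND2 (ENSG00000118971.9, chromosome 12, 4269771 to 4305353, plus strand) is the D cyclin prominent in many progenitor cells. It measured 439, 389 and 408 CPM with scrambled shRNA and 238, 234 and 252 CPM with TAK1 shRNA. The groups were again well apart, and CCND2 fell by 0.77 on the log2 scale (standard error 0.049, adjusted p = 6.45e-12 from edgeR). Its mean fell by 41.4%, while that of CCND1 fell by 47.5%.

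CCND3 (ENSG00000112576.13, chromosome 6, 41934934 to 42050357, minus strand) is the D cyclin whose level is known to rise during normal myoblast differentiation. It measured 614, 589 and 581 CPM in control samples and 588, 520 and 526 CPM in knockdown samples. Replicate 1 of the TAK1 shRNA samples lay within the control range, so the groups overlapped. The log2 fold change was -0.13 (95% interval -0.22 to -0.029, adjusted p = 0.0418 from edgeR), short of the fold change required. With that sample left out it was -0.18 (adjusted p = 0.000574 from edgeR), still short of the fold threshold. With control replicate 1 left out it was -0.10 (adjusted p = 0.168 from edgeR), the largest adjusted p with 1 sample left out.

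Of the kinases that D cyclins activate, CDK4 fell and CDK6 was not called. CDK4 (ENSG00000135446.17, chromosome 12, 57747727 to 57756013, minus strand) measured 174, 168 and 160 CPM with scrambled shRNA and 146, 129 and 140 CPM with TAK1 shRNA. Its log2 fold change of -0.27 (standard error 0.052, adjusted p = 0.000194 from edgeR) lay close to the fold threshold. It was -0.24 without replicate 1 of the control samples, -0.23 without replicate 2 of the knockdown samples and -0.22 with scaling by library size alone, all under that threshold. Exons of TSPAN31, on the opposite strand, cover 57.8% of the bases of the canonical CDK4 transcript. TSPAN31 itself rose, with means of 13.0 ± 0.883 and 17.0 ± 2.25 CPM (SD, n = 3) and a log2 fold change of 0.39. As the use of strand in counting is not given in the sources used here, reads of the 2 genes may not be separable.

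CDK6 (ENSG00000105810.10, chromosome 7, 92604921 to 92836573, minus strand) was the most abundant of the 9 genes in CPM and the 89th most abundant of all tested genes. It measured 1109, 1035 and 1042 CPM with scrambled shRNA and 928, 856 and 1029 CPM with TAK1 shRNA. The highest knockdown sample, replicate 3, lay just below the lowest control sample. The log2 fold change was -0.18 (95% interval -0.29 to -0.074, adjusted p = 0.00807 from edgeR), short of the fold threshold. With that sample left out it was -0.26 and passed both thresholds, and with knockdown replicate 2 left out it was -0.12 (adjusted p = 0.0564 from edgeR). Without control replicate 1 it was -0.15 (adjusted p = 0.0575 from edgeR). The spread among the knockdown samples, with an SD of 86.7 CPM against 40.7 CPM in the controls, was the widest of the 9 genes in CPM.

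Of the E cyclins, CCNE2 fell and CCNE1 was not called. CCNE1 (ENSG00000105173.14, chromosome 19, 29811991 to 29824312, plus strand), the more abundant of the pair, measured 50.3, 43.0 and 41.4 CPM in control samples and 48.3, 45.0 and 45.0 CPM in knockdown samples. The knockdown values all lay within the control range. The log2 fold change was 0.039, with a 95% interval from -0.11 to 0.18 (adjusted p = 0.721 from edgeR), and its sign turned to -0.017 without replicate 3 of the control samples. An interval of this width leaves out a fall as large as that of CDK4.

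CCNE2 (ENSG00000175305.18, chromosome 8, 94879770 to 94896678, minus strand) had the lowest level of the set, at 9.64, 8.54 and 13.5 CPM with scrambled shRNA and 5.81, 6.54 and 6.94 CPM with TAK1 shRNA. The groups did not overlap, and the control value of replicate 3 stood above the other two. CCNE2 fell by 0.71 on the log2 scale (adjusted p = 0.000310 from edgeR), and its standard error of 0.14 was the largest of the 9 genes. Without replicate 3 of the control samples it was -0.50. The lowest count of this gene was 170 in a sample, where counting alone gives a coefficient of variation of 7.67%, against at most 2.90% for the lowest count of each of the other genes. Exons of genes on the opposite strand, INTS8 among them, cover 57.1% of its canonical transcript, and INTS8 had a log2 fold change of 0.14 (adjusted p = 0.0703 from edgeR).

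CDK2 (ENSG00000123374.11, chromosome 12, 55966781 to 55972789, plus strand), the kinase partner of the E cyclins, measured 52.8, 53.7 and 56.3 CPM in control samples and 40.7, 38.8 and 42.2 CPM in knockdown samples. The groups lay apart, and CDK2 fell by 0.42 on the log2 scale (standard error 0.062, adjusted p = 7.30e-06 from edgeR). Leaving out 1 sample at a time gave values from -0.46 to -0.39.

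CDC25A (ENSG00000164045.12, chromosome 3, 48157146 to 48188417, minus strand) measured 90.3, 90.6 and 87.5 CPM with scrambled shRNA and 62.4, 62.9 and 62.5 CPM with TAK1 shRNA. The knockdown samples were nearly equal, with an SD of 0.278 CPM, and their mean was 70.0% of the control mean. CDC25A fell by 0.52 on the log2 scale (standard error 0.052, adjusted p = 2.32e-08 from edgeR), and its log2 fold change ran from -0.53 to -0.51 with 1 sample left out. No exon of another annotated gene overlaps CDC25A or CCNE1, while such exons cover 11.7% of the canonical transcript of CCND1, 15.4% of CCND2, 16.8% of CDK2 and 0.737% of CDK6.

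Promoter sequences of CDC25A, CCND3, CDK6, CDK4 and CCNE1, 5 of the 9 genes, were found in the RefSeq table (GRCh38.p14). Each runs from 250 bases before the listed start site to 50 after it. The windows of CCND3 (42048639 to 42048938) and CDK4 (57752261 to 57752560) lie inside the gene spans given above. Those spans reach further upstream, to 42050357 and 57756013, so the listed starts are not the outermost annotated ones. Whether they are the starts of the canonical transcripts was not tested. Matches in these windows may therefore not describe the promoters of those transcripts. Letters of 5 motifs were sought on both strands, and the pair of windows shown holds the only matches to motifs other than the GC box, with the match in capitals. The E2F letters (TTTCCCGC, TTTCGCGC, TTTGGCGC or TTTGCCGC) occurred in CDC25A alone of the 5, at position -44 from the start site, and in 3.33% of all 27305 promoters. The EGR letters (GCGGGGGCG) occurred in CCND3 at position -215, on the opposite strand, and in 5.02% of all promoters. A GC box (GGGCGG on either strand) starts at position -216 and overlaps the EGR match, and GC boxes occurred in all 5 promoters and in 44.6% of all promoters. The AP-1 letters (TGACTCA) and the CRE letters (TGACGTCA) occurred in 0 of the 5, against 4.92% and 1.98% of all promoters. A match describes these letters in this window and is no evidence of binding.
CDC25A, chr3:48188443-48188472, minus strand: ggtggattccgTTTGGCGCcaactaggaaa
CCND3, chr6:42048884-42048913, minus strand: cgtggcgcccCGCCCCCGCacctatgccgc

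**Figure D2:**
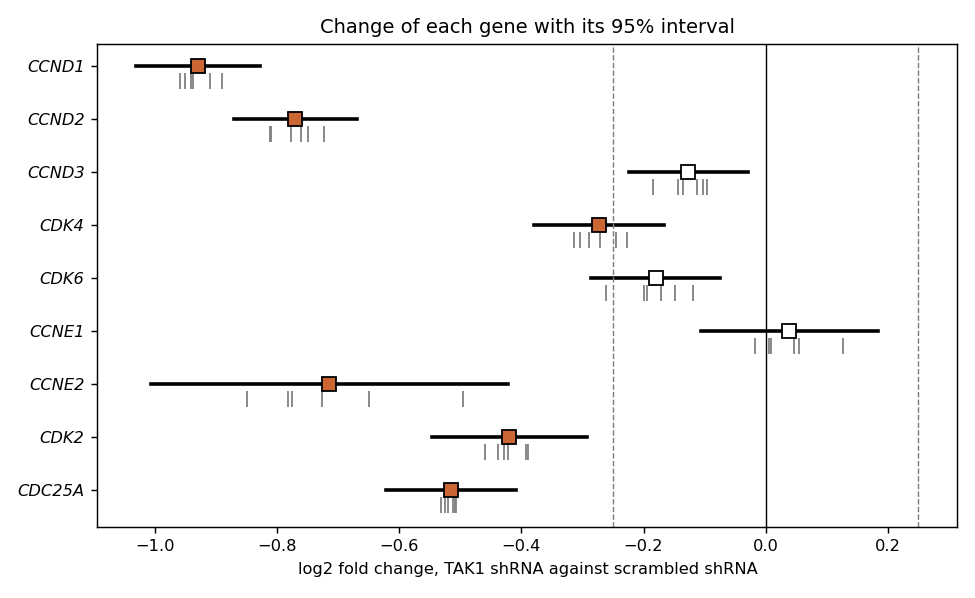
Log2 fold change of each gene (horizontal axis) with its 95% interval (black line), with orange squares for genes called lower, white squares for genes not called, and grey ticks for the values with each of the 6 samples left out in turn. Dashed lines mark the fold threshold of 0.25 in either direction. CDK4 and CDK6 have ticks on both sides of it, and those of CCND1, CCND2, CCNE2, CDK2 and CDC25A all lie beyond it.

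Levels were compared between genes per kilobase of the canonical transcript in GENCODE 44. In control cells CCND3 was highest, at 293 ± 8.42 CPM per kilobase (SD, n = 3), and CDK6 and CDK4 followed at 91.0 ± 3.49 and 89.7 ± 3.66, values that overlapped between samples. CCND2 and CCND1 came next, at 63.5 ± 3.83 and 49.7 ± 1.13 CPM per kilobase, without overlap. CDK2, CDC25A and CCNE1 lay close together at 24.2, 23.3 and 23.0 CPM per kilobase, where the samples of CCNE1 overlapped those of both other genes, and CCNE2 was lowest at 3.95 ± 0.979. In knockdown cells CCND3 remained highest at 269 ± 18.7 CPM per kilobase, while CCND2 and CCND1 were at 37.2 ± 1.44 and 26.1 ± 1.32. CCNE1, at 23.6 ± 0.981 CPM per kilobase, then overlapped CCND1 and lay above CDK2, at 18.1 ± 0.771, and CDC25A, at 16.3 ± 0.0723, in every knockdown sample. The order depends on the transcript length assumed. With the union of annotated exons, CCND3 was at 103 CPM per kilobase in control cells, CDK6 and CDK4 were at 86.8 and 54.1 without overlap, and CDC25A, CCNE1 and CDK2 were at 21.6, 18.2 and 14.0. CCND2, at 51.6 CPM per kilobase, overlapped CDK4 in control cells by that length. By that length CCNE1, at 18.7 CPM per kilobase in knockdown cells, did not overlap CCND1, at 23.2.

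Within the D cyclins, CCND3 made up 72.2% ± 0.449 of the summed level per kilobase in control cells and 80.9% ± 1.04 in knockdown cells (SD, n = 3). The share of CCND1 was 12.2% in control and 7.87% in knockdown cells, and that of CCND2 was 15.6% and 11.2%. None of these shares overlapped between the groups. The summed level of the D cyclins was 407 ± 12.9 CPM per kilobase in control and 332 ± 19.4 in knockdown cells, 18.3% lower. Shares and sums depend on the transcript length assumed. With the union of annotated exons, CCND3 made up 51.9% and 63.8% of the sum. By that length the sum was 199 ± 6.78 CPM per kilobase in control and 148 ± 7.42 in knockdown cells, 25.6% lower. CDK4 and CDK6 held near equal shares per kilobase, with CDK6 at 50.4% ± 0.671 in control and 51.9% ± 1.92 in knockdown cells, and the union of exons gave 61.6% and 63.1%. CCNE1 made up 85.3% ± 3.93 of the E cyclin level in control and 90.7% ± 1.06 in knockdown cells.

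**Figure D3:**
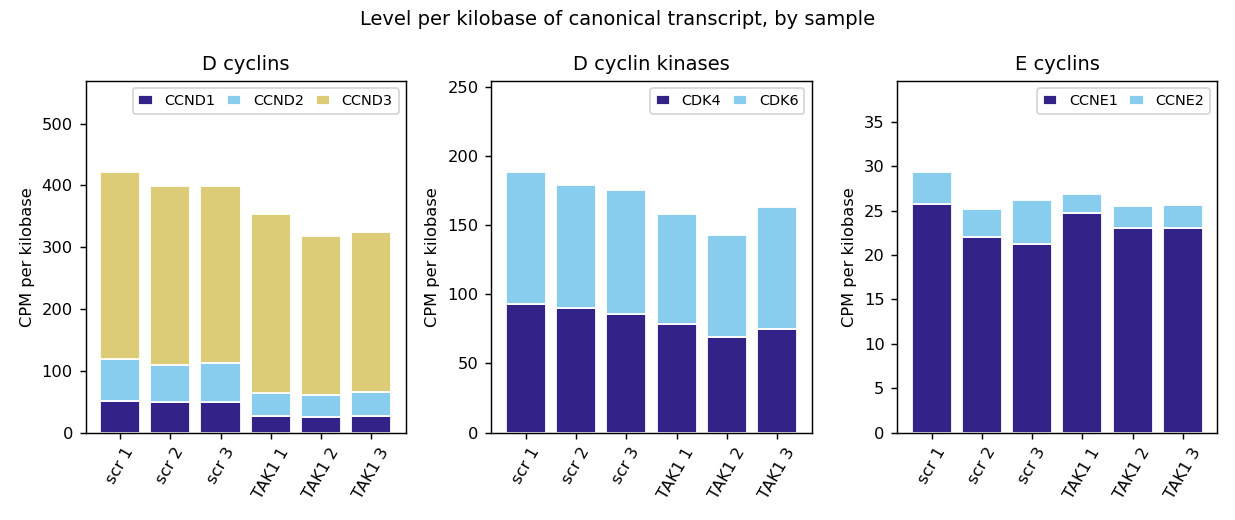
Level per kilobase of canonical transcript (vertical axes from 0, CPM per kilobase) of the D cyclins, the D cyclin kinases and the E cyclins in each sample (scr, scrambled shRNA), stacked so that the bar height is the family's sum. CCND3 fills most of each D cyclin bar, and the CCND1 and CCND2 parts are smaller in the 3 TAK1 shRNA bars.

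Paralogs were compared with the log2 ratio of their counts within each sample, which is free of library scaling. The ratio of CCND3 to CCND1 lay between 1.49 and 1.51 in the 3 control samples and was 2.35, 2.31 and 2.23 in the knockdown samples. These values did not overlap, and the means differed by 0.80 with a standard error of 0.037. The ratio of CCND3 to CCND2 differed by 0.64 (standard error 0.079) and that of CCND2 to CCND1 by 0.16 (standard error 0.053), also without overlap. The ratio of CCNE2 to CCNE1 differed by -0.74 with a standard error of 0.27, as the control values ran from -2.38 to -1.61. For each of these 4 ratios the exact permutation test (two-sided) gave p = 0.1, which is the lowest value possible with 3 against 3 samples, and an adjusted p of 0.125 over the 5 ratios tested. The ratio of CDK6 to CDK4 overlapped between the groups and differed by 0.090 with a standard error of 0.068 (exact permutation p = 0.3).

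The genes around this step were described from lists by role, and their counts stand beside the 11.3% of all tested genes called lower and the 11.8% called higher. E2F-responsive S phase genes, downstream of the cyclins and kinases, were lower in 16 of 20 cases and higher in 0, and all 20 had a negative log2 fold change (median -0.35). At a fold threshold of 0.5, 2 of the 20 were lower, against 4.27% of all tested genes. TYMS, which makes thymidylate, and PCNA, the sliding clamp of DNA polymerases, had the largest falls of this list, at -0.52 and -0.50. UHRF1, which couples DNA methylation to replication, fell, with means of 981 ± 25.1 and 713 ± 5.33 CPM (SD, n = 3). MCM2, MCM4, MCM5 and POLA1 did not reach the fold threshold, at -0.18, -0.22, -0.16 and -0.10.

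Of 6 later cyclins and their kinase subunits, 5 were tested and CDK1, CCNA2 and CCNB1 fell, at -0.43, -0.35 and -0.33. CCNB2 and CKS2 were not called, at -0.10 and 0.019. Among 13 RB and E2F genes, 3 were lower and 1 was higher, against 11.3% and 11.8% of all tested genes. The lower count was 5 without TAK1 shRNA replicate 3 and 2 without TAK1 shRNA replicate 2. E2F8, a repressor E2F, and E2F2, an activator, fell by 0.52 and 0.45 on the log2 scale, TFDP1, the partner of E2F proteins, fell by 0.27, and E2F5, a partner of the p107 and p130 pocket proteins, rose by 0.36. RB1 itself was not called, at -0.13 (adjusted p = 0.148 from edgeR).

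The inhibitors of these kinases were also among the genes that fell, with 4 of 7 lower and 0 higher (median log2 fold change -0.30). CDKN1C, which encodes p57, measured 21.1, 22.2 and 19.6 CPM with scrambled shRNA and 11.0, 9.80 and 10.1 CPM with TAK1 shRNA, a log2 fold change of -1.03. CDKN2B, which encodes the CDK4 and CDK6 inhibitor p15, changed by -0.84, and CDKN1A, which encodes p21, by -0.41. These are RNA levels, whereas the study reported a rise of p21 protein on its protein array after TAK1 silencing. CDKN2D fell by 0.30 on the log2 scale. CDKN1B, which encodes p27, had a log2 fold change of 0.057 and was not called (adjusted p = 0.506 from edgeR). CDKN2C, at -0.238 (adjusted p = 0.00132 from edgeR), fell just short of the fold threshold, and CDKN2A was not called, at -0.12.

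Of 13 genes for the turnover of D and E cyclins and of CDK inhibitors, 2 were lower and 3 were higher, against 11.3% and 11.8% of all tested genes. The higher count was 1 without scrambled shRNA replicate 2. SKP2, the ubiquitin ligase subunit that recognizes p27, measured 335, 333 and 342 CPM with scrambled shRNA and 196, 206 and 200 CPM with TAK1 shRNA, and its log2 fold change was -0.75. RBX1, a shared subunit of cullin ligases, fell by 0.49 on the log2 scale. FBXW7, the subunit that recognizes cyclin E, rose by 0.25, and FBXO31 and USP2, a ligase subunit and a deubiquitinase that act on cyclin D1, rose by 0.27 and 0.68. A list of 10 genes held those for the turnover of CDC25A, the kinases that oppose it, and its paralogs CDC25B and CDC25C. Of these, 9 were tested, and CHEK1 and BTRC fell by 0.33 and 0.27. That count was 1 without TAK1 shRNA replicate 2 and with scaling by library size alone. WEE1, CDC25B and CDC25C were not called, at 0.032, 0.10 and -0.15. None of the 4 genes for the CDK-activating kinase and its chaperone partner (CDK7, CCNH, MNAT1 and CDC37) passed, with values from -0.18 to 0.027, and 1 was called lower without scrambled shRNA replicate 1.

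Among 19 transcription factors known to act on CCND1, 8 were lower and 1 was higher. EGR1, an immediate early factor, had the largest change at -1.32, followed by FOS at -0.68, with a control mean of 3.61 CPM, ETS2 at -0.65 and FOSL1 at -0.59. MYC measured 231, 222 and 227 CPM with scrambled shRNA and 292, 285 and 279 CPM with TAK1 shRNA, and was the only 1 of the 19 called higher, at 0.33. JUN, CTNNB1 and STAT3 were not called, at 0.072, -0.060 and -0.0081. A list of 11 other cyclins and cyclin-dependent kinases had a median log2 fold change of 0.013. Of these, 4 were lower (CCNG2, CCNI, CDK14 and CCNC, from -0.43 to -0.25) and 1 was higher (CCNY, at 0.26). The lower count was 2 with scaling by library size alone, and the higher count was 0 without scrambled shRNA replicate 3 or without TAK1 shRNA replicate 3.

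**Figure D4:**
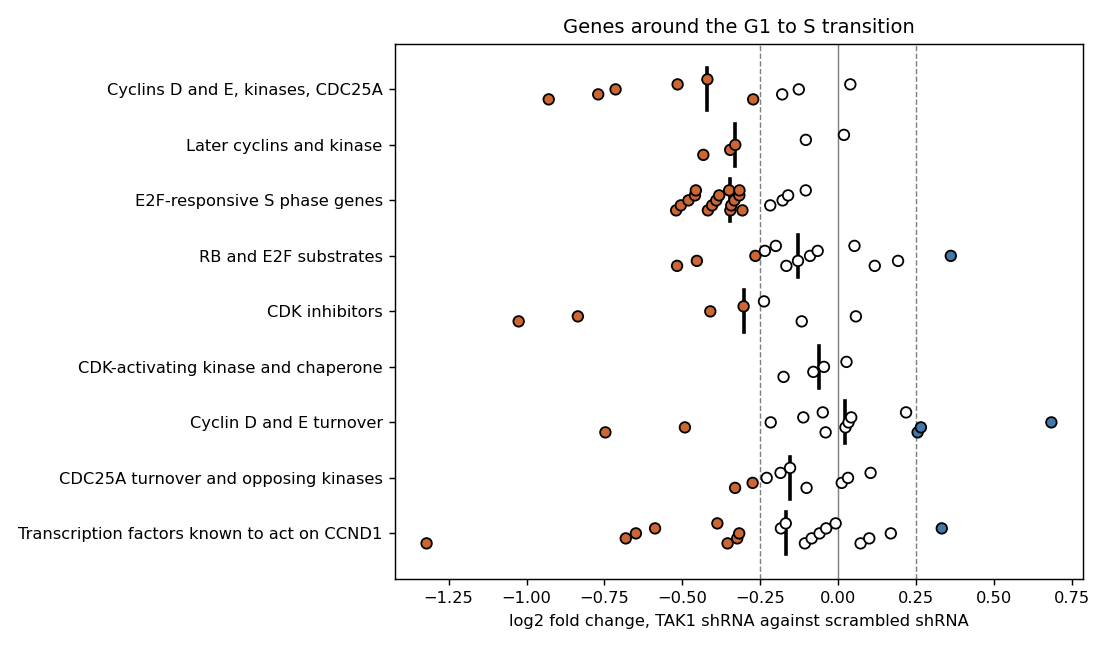
Log2 fold change (horizontal axis) of each tested gene in the 9 genes and 8 lists by role, with orange points for genes called lower, blue for genes called higher, white for genes not called, and a black bar at the median of each list. The E2F-responsive S phase genes all lie left of 0, while the turnover genes lie on both sides. The list of CDC25A turnover and opposing kinases also holds the paralogs CDC25B and CDC25C.

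The genes with a profile most like that of CCND1 were sought by the distance between log2 CPM profiles, centred on the control mean, over the 6 samples and among the 9711 genes averaging 10 CPM or more. CCND1 was taken because its log2 fold change was the largest of the 9 genes. PTPN1, SPRY4, ATP1B1, MAF and SEMA7A were nearest, at distances from 0.077 to 0.121, with log2 fold changes from -0.95 to -0.87. This distance is small only for genes that change by nearly as much as CCND1, so the narrow range follows from the measure.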

How the data were processed

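Poly(A)-enriched mRNA from 6 RD samples, 3 per shRNA, was sequenced, and the raw counts per gene symbol were deposited by the authors without normalization, after CASAVA base calling, read filtering and STAR alignment to GRCh38. The counter, annotation release and strand setting are not given in the sources used here. Groups came from the labels. Counts were filtered with edgeR's default and compared with edgeR 4.0.16 (R 4.3.3), with the trimmed mean of M-values, the quasi-likelihood test and Benjamini-Hochberg adjustment over 15935 genes. The tests were checked on simulated data. DESeq2 1.42.0 and limma 3.58.1 (voom), other normalizations, filters and fold thresholds, a replicate block and leaving out each sample were alternatives. Standard errors were derived from the F statistic. The 9 genes, the lists and the tests were chosen with earlier results of these data known. Named are the 9 genes, MAP3K7, markers, up to 4 called genes with the largest changes per list, single genes a sentence turns on, and the 5 profiles nearest to the most changed gene. Genes named from a list as not called were chosen after their values were seen. Transcript lengths and overlaps came from GENCODE 44.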

Additional observations from a re-analysis of the deposited data

How the results depend on the processing

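Over 16 alternatives, the 9 genes gave 144 values, of which 135 kept their direction and their side of the thresholds. The value that changed sign was that of CCNE1, at -0.017 without replicate 3 of the scrambled shRNA samples, with a range up to 0.13 when other samples were left out. The number of the 9 genes called lower was 4 at a fold threshold of 0.5, where 4.27% of all genes tested were called lower, 8 with no fold threshold (17.2%), 5 with scaling by library size alone, and between 5 and 7 with 1 sample left out. Across all genes, a fold threshold of 0.5 left 680 lower and 735 higher genes, and no fold threshold gave 2734 lower genes. Among the lists, the lower count at 0.5 was 2 for S phase genes, 0 for later cyclins and 2 for CDK inhibitors. It was 4 for factors acting on CCND1, 1 for RB and E2F genes and 1 for cyclin turnover genes. For the list of CDC25A turnover genes, opposing kinases and paralogs, and for the other cyclins and kinases, it was 0. The higher count at 0.5 was 1 for cyclin turnover genes and 0 for these other lists. Scaling by library size alone made 62.9% of the calls upward, against 51.0%. The deviations of samples with the same replicate number had small positive correlations of 0.134, 0.0707 and 0.0479. Those of samples with different numbers ran from -0.137 to 0.0767. The labels name no pairs, and the numbers were not taken as pairs. A fit with the replicate block called 6 of the 9 genes lower, with 1848 lower and 1942 higher genes in all. Standard errors were smaller in that fit, at 0.034 against 0.047 for CCND3 and 0.038 against 0.051 for CDK6. Neither gene passed the fold threshold there, at -0.13 and -0.18. Counting error is largest for CCNE2, the gene with the fewest counts of the 9, and intervals from counting cover counting error only.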
